A study of Mus musculus with 36 samples.

Results

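The collagen genes of epididymal white adipose tissue (eWAT) are described here, across diet, an adipose *Ccl19* knock-in and a ligature around a tooth. A gene was a member when its mouse symbol was Col, a number, the letter a and a number (*Col1a1*, *Col4a2*), and 42 of the 24750 genes in the table met this rule. The annotation has 44 such genes, and *Col9a1* and *Col9a2* were not analysed here. RNA was measured by sequencing in the eWAT of 36 male C57BL/6 mice, 1 library per mouse and 3 mice in each of 12 groups. The mice were wild type (WT) or Adipoq-CCL19-KI (KI), fed a normal diet (ND), a 40% high-fat diet (40% HFD) or a 60% high-fat diet (60% HFD) for 10 weeks, and had either no ligature or ligature-induced periodontitis (LIP) for 2 weeks. The groups were therefore ND WT, ND WT LIP, ND KI, ND KI LIP, 40% HFD WT, 40% HFD WT LIP, 40% HFD KI, 40% HFD KI LIP, 60% HFD WT, 60% HFD WT LIP, 60% HFD KI and 60% HFD KI LIP. In the KI mice the coding sequence of the chemokine CCL19 was placed in the *Adipoq* locus, so that the adipocyte promoter drives it. The KI line was kept homozygous and WT mice were bred apart from it, so genotype and line cannot be told apart. By the series' design text the mice were 14 weeks old when the ligature was placed, and thus 16 weeks old at collection. That text speaks of the ligature for all mice, whereas the labels name it in only 6 of the groups, and the labels were followed. Each mouse is a separate animal, so the spread within a group is between mice.

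Collagens are the main structural proteins outside the cell. Their chains carry long runs in which glycine returns at a regular spacing, which lets the chains wind into a stiff rope. Fibrillar collagens (types I, III and V) form the fibres of connective tissue, whereas type IV collagen forms the network of basement membranes, the thin sheet that surrounds each adipocyte and each vessel. Type VI collagen forms fine beaded filaments close to adipocytes and is abundant in fat. FACIT members (fibril-associated collagens with interrupted helices) sit on the surface of fibres, and a few members span the cell membrane. In fat, progenitors and fibroblasts are the best known source of fibrillar collagen, and adipocytes make much of their own basement membrane.

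The sequences below show what defines the family and how some of its genes are placed. The first pair compares 90 coding bases of a fibrillar chain with 90 of a basement membrane chain, read in codons from the GENCODE M21 annotation of GRCm38, with each glycine codon (GGN) in capitals. In *Col3a1*, codons 680 to 709 lie in the middle of the longest run, which has 344 glycines without a break in spacing. In *Col4a1*, codons 1338 to 1367 cross the end of the longest run (40 glycines), and the regular spacing is lost at that end and then taken up again.
Col3a1: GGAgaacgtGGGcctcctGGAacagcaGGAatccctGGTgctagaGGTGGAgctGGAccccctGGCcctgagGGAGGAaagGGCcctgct
Col4a1: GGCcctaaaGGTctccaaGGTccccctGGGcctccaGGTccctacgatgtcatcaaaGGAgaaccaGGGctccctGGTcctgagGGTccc
The longest run was 337 to 344 repeats in 9 of the 11 fibrillar members and 216 and 217 in *Col24a1* and *Col27a1*, whereas it was 39 to 66 in the 6 chains of type IV collagen. *Col4a1* instead had 18 separate stretches of at least 10 repeats.

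The type IV genes are arranged in head-to-head pairs, with distances taken between GENCODE M21 starts. The annotated starts of *Col4a1* and *Col4a2* on chromosome 8 overlap by 22 bases, and those of *Col4a6* and *Col4a5* on chromosome X lie 1308 bases apart. Only 71 bases separate *Col4a4* (minus strand) from *Col4a3* (plus strand), and they are shown whole (RefSeq, GRCm38.p6, chr1:82586850-82586920, plus strand) because they lie between the starts of both genes. For contrast, the 250 bases before the starts of *Col5a3* (chr9:20815068-20815317, minus strand) and *Col15a1* (chr4:47207762-47208011, plus strand) are shown, since this pair on separate chromosomes moved together as closely as the paired type IV genes. The 250-base windows follow RefSeq starts, and the GENCODE start of *Col15a1*, at 47208161, lies past the end of its window. Capitals mark the letters CCAAT and GGGCGG on either strand.
Col4a4-Col4a3: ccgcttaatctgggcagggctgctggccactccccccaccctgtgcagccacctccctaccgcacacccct
Col5a3: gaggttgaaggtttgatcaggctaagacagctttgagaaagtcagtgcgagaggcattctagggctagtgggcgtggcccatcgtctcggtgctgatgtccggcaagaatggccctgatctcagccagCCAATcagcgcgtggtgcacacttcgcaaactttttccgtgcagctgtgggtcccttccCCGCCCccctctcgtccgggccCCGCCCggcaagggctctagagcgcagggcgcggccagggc
Col15a1: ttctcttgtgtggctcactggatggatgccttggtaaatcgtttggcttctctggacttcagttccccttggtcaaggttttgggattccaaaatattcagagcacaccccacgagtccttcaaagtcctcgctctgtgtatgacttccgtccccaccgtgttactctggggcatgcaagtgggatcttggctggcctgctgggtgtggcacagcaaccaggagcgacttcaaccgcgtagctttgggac
*Col5a3* held 1 CCAAT and 2 GGGCGG, whereas the other sequences held neither, and none of the 3 held TATAAA. Of 35 windows of the same length from 33 members, 12 held CCAAT, 21 held GGGCGG and 5 held TATAAA. Over all 32851 windows the shares were 33.8%, 32.7% and 12.4%. These matches describe letters and not binding.

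The libraries held 11962228 to 21581595 reads (median 15573273), of which collagen genes took 0.469 to 1.60%. Values are the authors' normalized CPM, read counts scaled to the size of the library. *Ccl19* checked the labels. It was 0.507 to 19.2 CPM in 18 WT libraries (median 1.25) and 0.687 to 34.6 CPM in 18 KI libraries (median 16.2). The library labelled ND WT 2 was the highest of WT, above 4.51 CPM in the next, and the library labelled 60% HFD KI 3 was the lowest of KI, below 5.57 CPM in the next, so these libraries go against their labels. The adipocyte marker *Adipoq* was present throughout (300 to 3937 CPM), with a median of 2323 CPM in WT and 616 in KI. RNA of other tissues was present as well. The 8 hepatocyte markers, all measured, summed to 131 to 27347 CPM under ND, 1792 to 40587.5 under 40% HFD and 880 to 39722 under 60% HFD, and *Fgb* and *Ttr* were at 0 in 1 library each. Albumin (*Alb*) was 5.55 to 26901 CPM. The 9 epididymal epithelium markers summed to 0.424 to 9553 CPM, 8 of them were at 0 in some libraries, and the libraries labelled ND WT 2 and 60% HFD KI 2 had scores of 8.12 and 6.10 against at most 2.29 elsewhere. A score is the mean log2(CPM + 1) of the markers of a list. The 8 smooth muscle markers summed to 134 to 5508 CPM. In whole tissue, fewer cells of a type and less RNA per cell cannot be told apart.

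Type III collagen was the most abundant member by level per length. *Col3a1* had a mean of 223 CPM per kb of exon over the 36 libraries, *Col6a1* 128, *Col1a1* 112 and *Col4a1* 109. *Col1a2* (77.2), *Col4a2* (76.1), *Col6a2* (68.4), *Col15a1* (57.4) and *Col18a1* (49.9) followed on the same scale. *Col14a1*, at 32.9 CPM per kb, led the FACIT class, *Col8a1* (3.45) led the short-chain and other collagens, and *Col23a1* (1.14) led the membrane-spanning class. *Col3a1*, *Col1a2*, *Col4a1*, *Col1a1*, *Col6a2* and *Col6a1* together held 56.4 to 74.5% of the summed collagen CPM (median 66.7%), and *Col3a1* alone a median of 24.9%. The order near the top was not firm, since the ranges of *Col6a1*, *Col1a1* and *Col4a1* overlap widely in the plot of levels. The sum over the 11 fibrillar genes ranged from 2091 to 7566 CPM between mice and that of the 8 basement membrane genes from 840.0 to 4575 CPM.

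**Figure D1:**
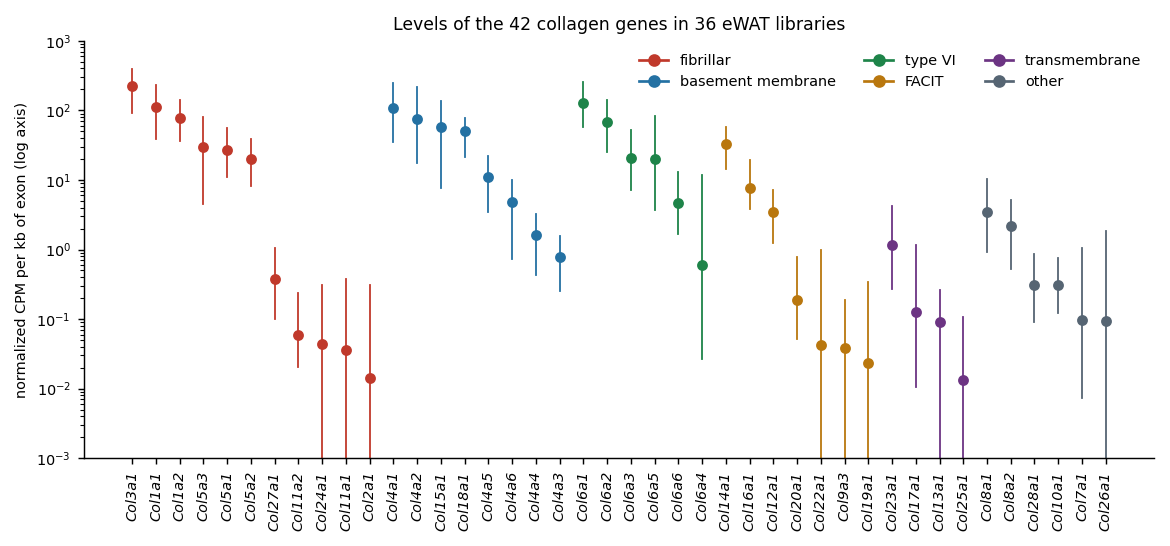
Mean level (dots) and range over 36 libraries (lines) of each of the 42 collagen genes in normalized CPM per kb of exon, on a log axis, by class. Lines reach the bottom of the axis where at least 1 library was at 0. *Col3a1* is highest at 223, and *Col25a1* is among the lowest at 0.0134.

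The collagens of cartilage and epithelia were near the limit of detection. A gene was tested when it had at least 1 CPM in at least 3 libraries, which 35 of the 42 members did, while *Col2a1*, *Col9a3*, *Col11a2*, *Col19a1*, *Col22a1*, *Col24a1* and *Col25a1* did not. By class, 8 of 11 fibrillar, 8 of 8 basement membrane, 6 of 6 type VI, 4 of 7 FACIT, 3 of 4 membrane-spanning and 6 of 6 other members were tested. *Col2a1*, the main collagen of cartilage, was at 0 in 21 libraries and in all mice of 4 groups, *Col19a1* was at 0 in all mice of 2 groups, and *Col9a3*, *Col22a1* and *Col26a1* were each at 0 in all mice of 1 group. A value of 0 allows up to 3 reads, or 0.142 to 0.250 CPM depending on the library. *Col11a1*, *Col13a1* and *Col17a1* reached 1 CPM in 4 libraries each, *Col7a1* in 5 and *Col26a1* in 6, so they passed only through those few mice.

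Under the 60% HFD, *Col5a3*, *Col4a1*, *Col4a2*, *Col15a1* and *Col18a1* were higher and *Col4a6* was lower, whereas the main fibrillar chains *Col1a1*, *Col1a2* and *Col3a1* were not called. Averaged over genotype and ligature (12 mice against 12), 9 of 35 tested members were higher and 1 was lower than under ND by limma with Benjamini-Hochberg adjustment over 17852 genes (adjusted p below 0.05). An unadjusted p under 0.05 was found for 14, 11 higher (18.3% of all genes) and 3 lower (16.5%), and edgeR called 7. At the adjusted p, 10.2% of all genes tested were higher and 8.40% lower. The median change over the 35 members was 0.15 on the log2(CPM + 1) scale, against 0.01 over all genes tested. Of the basement membrane class, 4 of 8 were higher and 1 was lower, and of the fibrillar class 2 of 8 were higher. The fold changes below are log2 differences of log2(CPM + 1) with their standard errors, which understate changes of low genes.

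Among type IV chains, *Col4a2*, a chain of the general basement membrane network, ranged from 117 to 827 CPM under ND (median 288), from 180 to 750.0 under 40% HFD (median 461) and from 291 to 1415 under 60% HFD (median 551). The diets overlapped, but the lowest mice were ND mice. *Col4a2* rose by 1.05 ± 0.23 (adjusted p = 0.00329) under 60% HFD. Its partner *Col4a1* ranged from 261 to 1346 CPM under ND (median 536) and from 457 to 1847 under 60% HFD (median 860), and rose by 0.65 ± 0.21 (adjusted p = 0.0300). *Col15a1*, a proteoglycan-like collagen at the edge of basement membranes, ranged from 49.0 to 857 CPM under ND (median 190) and from 154 to 816 under 60% HFD (median 378). It rose by 1.07 ± 0.30 (adjusted p = 0.0156). *Col18a1*, the parent of the fragment endostatin, ranged from 196 to 413 CPM under ND (median 263) and from 226 to 519 under 60% HFD (median 376), a rise of 0.43 ± 0.14 (adjusted p = 0.0306).

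In the fibrillar class, *Col5a3*, a chain of type V collagen, had the largest change of all members. Its mean level was 29.4 CPM per kb, beside 27.1 for *Col5a1* and 20.0 for *Col5a2*. It ranged from 30.7 to 554 CPM under ND (median 74.5), from 74.4 to 345 under 40% HFD (median 228) and from 81.9 to 501 under 60% HFD (median 221). The high ND values belonged to ND WT mice, as the plot of 6 genes shows. *Col5a3* rose by 1.25 ± 0.31 under 60% HFD (adjusted p = 0.00706), while its type V partners *Col5a1* (0.45 ± 0.19, adjusted p = 0.0915) and *Col5a2* (0.36 ± 0.21, adjusted p = 0.218) did not pass. *Col27a1*, a fibrillar chain with a shorter run, was low (median 2.71 CPM under ND and 5.87 under 60% HFD) and rose by 0.71 ± 0.22 (adjusted p = 0.0283). The bulk chains did not pass. *Col1a1* was 488 to 1388 CPM under ND (median 693) and 446 to 1436 under 60% HFD (median 578), a difference of -0.15 ± 0.24. *Col1a2* differed by -0.18 ± 0.21 and *Col3a1* by 0.15 ± 0.23. None of these 3 was called when any of the 24 mice was left out.

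In type VI collagen, *Col6a2* rose by 0.66 ± 0.23 (adjusted p = 0.0428), from a median of 384 to 593 CPM. *Col6a1* (0.43 ± 0.22, adjusted p = 0.156) and *Col6a3*, whose cleaved end is the signal endotrophin (0.60 ± 0.24, adjusted p = 0.0692), did not pass. The FACIT member *Col12a1* ranged from 19.0 to 104 CPM under ND (median 27.4) and from 24.8 to 110 under 60% HFD (median 60.8), and rose by 0.82 ± 0.25 (adjusted p = 0.0251). *Col14a1*, the most abundant FACIT, differed by 0.25 ± 0.20 (adjusted p = 0.388) and was not called. *Col28a1*, a low beaded-filament collagen, rose by 0.48 ± 0.15 (adjusted p = 0.0238), from a median of 1.08 to 2.05 CPM.

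Of the 4 type IV chains of specialised basement membranes, all had estimates below 0 and *Col4a6* passed. *Col4a5* differed by -0.43 ± 0.21 (adjusted p = 0.145), *Col4a4* by -0.41 ± 0.23 (adjusted p = 0.212) and *Col4a3* by -0.26 ± 0.20 (adjusted p = 0.354). *Col4a6* ranged from 20.7 to 79.5 CPM under ND (median 52.0), from 14.1 to 54.8 under 40% HFD (median 41.9) and from 5.84 to 45.0 under 60% HFD (median 28.9). It fell by 0.79 ± 0.23 under 60% HFD (adjusted p = 0.0212). ND WT mice, at 20.7, 30.6 and 21.9 CPM, were as low as 60% HFD mice. The 6 mesothelium markers, all measured in every library, summed to 346 to 1852 CPM under ND and 111 to 1238 under 60% HFD, and with their score as a covariate *Col4a6* differed by -0.28 (adjusted p = 0.182). This covariate, like the others below, was chosen after seeing the data.

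**Figure D2:**
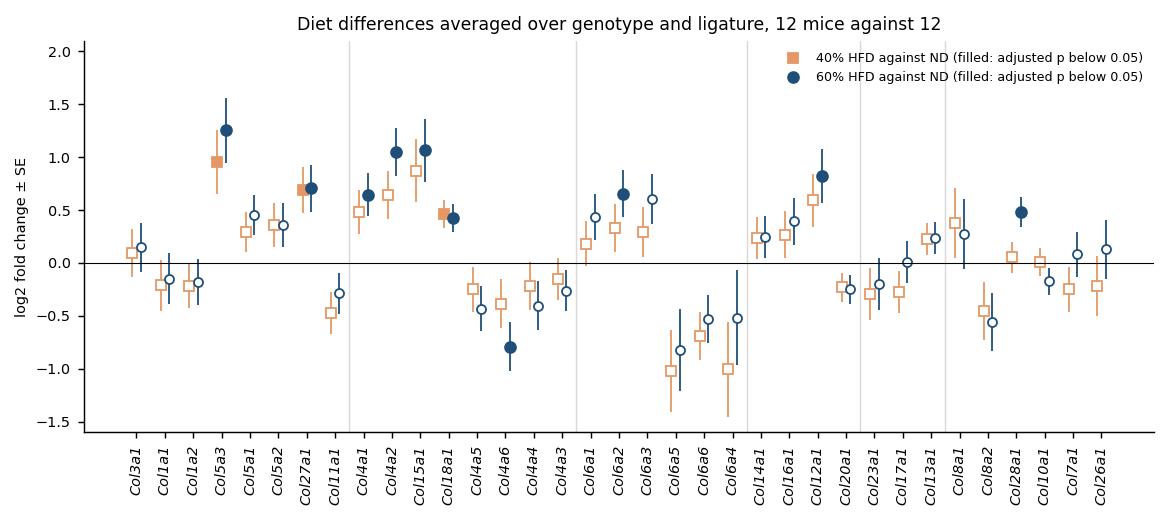
Log2 fold change ± SE of each tested collagen gene under 40% HFD (squares) and 60% HFD (circles) against ND, averaged over genotype and ligature, 12 mice per diet. Filled symbols passed an adjusted p of 0.05, and the 9 filled circles above 0 include *Col4a1*, *Col4a2*, *Col15a1* and *Col18a1*, whereas *Col1a1*, *Col1a2* and *Col3a1* lie near 0.

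The calls differed in how much they depended on single mice. When each of the 24 mice was left out in turn, *Col4a2*, *Col5a3*, *Col15a1*, *Col28a1* and *Col4a6* passed all 24 times, *Col12a1* 23, *Col27a1* 19, *Col18a1* 17, *Col4a1* 16 and *Col6a2* 7 times. The count of 10 became 16 (14 higher, 2 lower) without ND KI 1 and 6 (5 higher, 1 lower) without ND KI 2. Without the libraries labelled ND WT 2 and 60% HFD KI 3, whose *Ccl19* goes against the label, 5 were called, all higher. These were *Col4a2* (0.90), *Col5a3* (1.04), *Col15a1* (0.94), *Col12a1* (0.99) and *Col27a1* (0.77). Without the 2 libraries richest in epididymal RNA, 6 were called (4 higher, 2 lower).

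Markers of other cells moved with diet. The hepatocyte score had a median of 6.21 under ND and 9.86 under 60% HFD, and with it as a covariate *Col4a2* (1.42, adjusted p = 0.000969), *Col5a3* (1.71, adjusted p = 0.00224) and *Col15a1* (1.55, adjusted p = 0.00334) remained higher, whereas *Col18a1* (0.20, adjusted p = 0.415), *Col27a1* (0.38, adjusted p = 0.349) and *Col4a6* (-0.53, adjusted p = 0.219) did not pass. The adipocyte score had medians of 9.16 and 9.27, and with it as a covariate all 10 members were called again. The macrophage score had medians of 5.96 and 6.72, and its part in the result was not tested.

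Under the 40% HFD the changes were fewer. *Col5a3* (0.95 ± 0.31, adjusted p = 0.0477), *Col27a1* (0.69 ± 0.22, adjusted p = 0.0486) and *Col18a1* (0.46 ± 0.14, adjusted p = 0.0330) rose against ND, 3 of 35 members against 5.36% of all genes, and no member fell. *Col15a1* (0.87 ± 0.30, adjusted p = 0.0627) and *Col4a2* (0.64 ± 0.23, adjusted p = 0.0714) did not pass. The count was 9 without ND KI 1. It was 0 without any of ND KI 2, ND KI LIP 3, 40% HFD WT 3, 40% HFD WT LIP 3, 40% HFD KI 2 and 40% HFD KI LIP 2, and 1 without any of ND WT 2, ND WT LIP 1, ND WT LIP 2, ND KI LIP 2, 40% HFD WT LIP 1 and 40% HFD KI 3. This comparison shares its 12 ND mice with the 60% HFD comparison. Between the high-fat diets, limma called 0 members (0.745% of all genes), 1 had an unadjusted p under 0.05 (*Col28a1*, 0.43 ± 0.15) and edgeR called 0. Of all genes, 7.7% were higher and 5.5% lower at that unadjusted p.

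**Figure D3:**
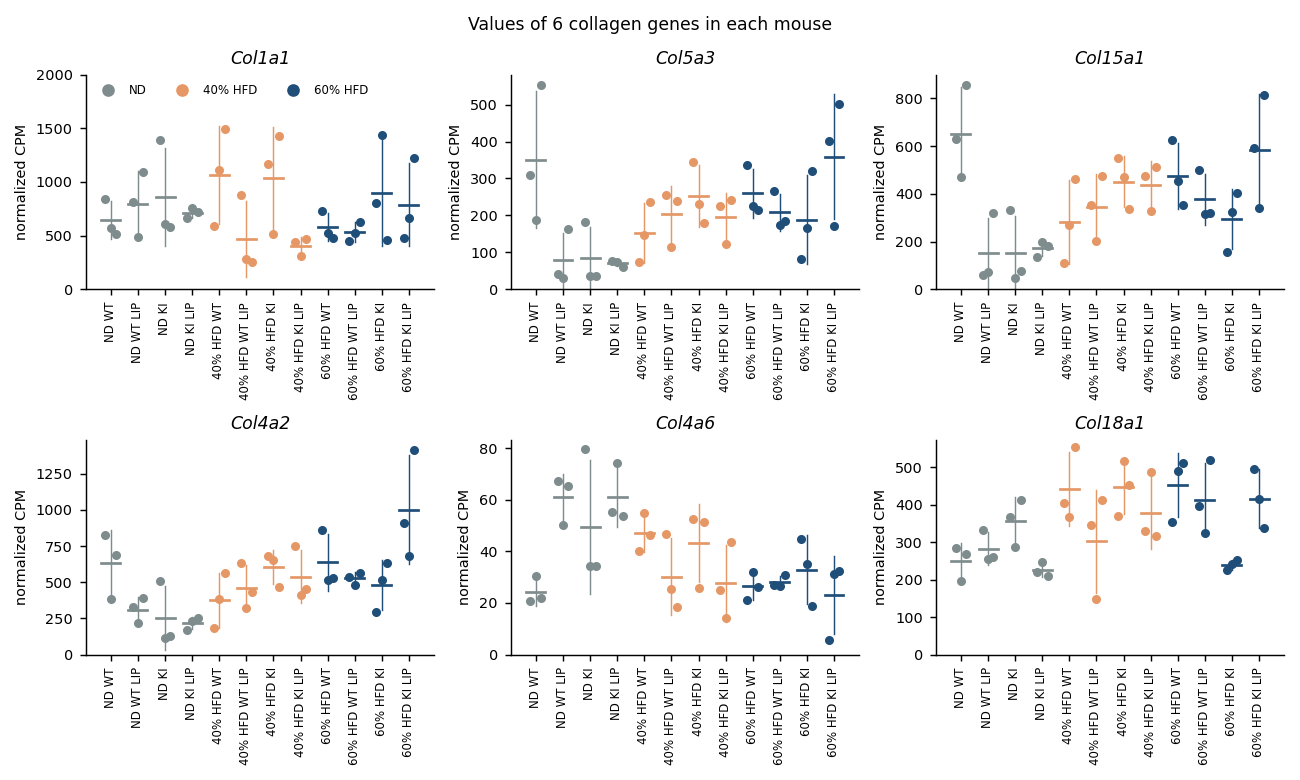
Normalized CPM of 6 collagen genes in each of the 36 mice by group, with the group mean (horizontal line) and SD (vertical line, n = 3). *Col5a3* and *Col15a1* were highest among ND groups in ND WT, *Col4a2* reached 1415 CPM in 60% HFD KI LIP, and *Col18a1* was 226 to 252 CPM in 60% HFD KI.

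The effect of 60% HFD was also tested within each genotype and ligature state, against 3 ND mice each. In ligatured KI mice, 6 of 35 members were higher (6.62% of all genes) and 1 was lower (6.17%). *Col4a2* was 172, 235 and 251 CPM in ND KI LIP and 913, 679 and 1415 in 60% HFD KI LIP. The groups did not overlap, and the difference was 2.14 ± 0.46 (adjusted p = 0.00474). *Col5a3* was 75.3, 73.7 and 60.7 CPM against 402, 172 and 501, again without overlap (2.21 ± 0.61, adjusted p = 0.0212). *Col4a1* (1.57 ± 0.41, adjusted p = 0.0160), *Col12a1* (1.56 ± 0.50, adjusted p = 0.0426), *Col28a1* (1.03 ± 0.29, adjusted p = 0.0240) and *Col18a1* (0.86 ± 0.27, adjusted p = 0.0381) rose as well. *Col4a6* was 55.3, 74.2 and 53.7 CPM against 5.84, 31.3 and 32.5, and fell by 1.66 ± 0.47 (adjusted p = 0.0237). The mesothelium score was 6.60 to 7.23 in the former and 3.93 to 6.26 in the latter, and the smooth muscle score 4.05 to 8.47 and 3.64 to 4.63, and with these as covariates 4 and 0 members were called. The adipocyte score was 8.38 to 9.00 and 8.96 to 9.78, and with it as a covariate 3 were called, namely *Col4a2* (1.38), *Col4a1* (0.83) and *Col4a6* (-1.66), and not *Col5a3*. The hepatocyte score was 2.02 to 8.88 and 7.44 to 10.5 and the macrophage score 5.89 to 6.44 and 6.44 to 7.43, and the part of the macrophage score was not tested. The count of 7 was 1 without ND KI LIP 2, 4 without ND KI LIP 1 or ND KI LIP 3, and 3 without 60% HFD KI LIP 1 or 60% HFD KI LIP 3.

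In the other 3 arms 0 to 2 members were called. The direction of the estimates differed between arms. In WT mice they were above 0 for 10 of 35 members without ligature (42.5% of all genes) and 18 with it (50.3%). In KI mice they were above 0 for 28 without ligature (55.9%) and 19 with it (48.5%). In unligatured WT mice limma called 0 (3.41% of all genes), 4 had an unadjusted p under 0.05 and edgeR called 2, and limma called 1 without ND WT 1. In ligatured WT mice limma called 0 (2.57%), 8 had an unadjusted p under 0.05 and edgeR called 0, and limma called 2 without ND WT LIP 3. That unadjusted p was met by 9.02% of all genes higher and 7.8% lower without ligature, and 9.05% and 9.6% with it. The former arm has high starting values: *Col15a1* was 629, 469 and 857 CPM in ND WT and 625, 452 and 352 in 60% HFD WT. In unligatured KI mice 2 members were higher (7.19% of all genes), namely *Col17a1*, which anchors epithelial cells to their basement membrane, and *Col7a1* (1.64 ± 0.43, adjusted p = 0.0207), which forms the anchoring fibrils of skin. *Col17a1* passed the filter only through 60% HFD KI, where 2 of its 4 libraries at 1 CPM or more lie, so its values are given as a description. *Col17a1* was 0.330, 0.378 and 0.236 CPM in ND KI and 0.852, 4.61 and 6.87 in 60% HFD KI, without overlap, and *Col7a1* was 0.472, 0.918 and 0.708 against 0.796, 5.84 and 10.8, with overlap. The 3 mice of 60% HFD KI had smooth muscle scores of 5.81 to 6.64 and epididymal scores of 2.07 to 6.10. The count was 0 without ND KI 2 or ND KI 3 and 11 without ND KI 1. The highest values of both genes are from the library labelled 60% HFD KI 3, whose *Ccl19* goes against the label. Without the 2 libraries of this kind *Col7a1* was not called (1.05 ± 0.34, adjusted p = 0.0530), *Col17a1* was not tested, and the 2 members called were *Col6a4* (2.91 ± 0.63) and *Col11a1*, which then passed the filter only through 60% HFD KI. Whether the diet effect differed by genotype was tested as an interaction. Limma called 0 members (0.476% of all genes), 7 had an unadjusted p under 0.05 and edgeR called 1, and the limma count was 3 without ND KI 1 and 2 without 60% HFD KI 1. For 40% HFD limma called 0 (0.00%), 6 had an unadjusted p under 0.05 and edgeR called 0, and the count was 3 without ND KI 1. The share of all genes at that unadjusted p was 12.5% higher and 9.8% lower for 60% HFD, and 7.9% and 3.1% for 40% HFD.

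For the knock-in averaged over diet and ligature no collagen gene passed. Limma called 0 of 35 (0.459% of all genes), 3 had an unadjusted p under 0.05 (*Col7a1*, *Col28a1* and *Col10a1*) and edgeR called 0. These 3 were all higher, and 7.9% of all genes were higher and 9.02% lower at that unadjusted p. The 18 WT and 18 KI mice overlapped for the main chains, with medians of 580 and 665 CPM for *Col1a1*, 499 and 491 for *Col4a2* and 202 and 176 for *Col5a3*. Without the library labelled ND WT 2, or without 60% HFD KI 1, the count was 1.

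Under ND without ligature, *Col15a1*, *Col5a3*, *Col4a2* and *Col4a1* were lower in KI mice. *Col15a1* was 629, 469 and 857 CPM in ND WT and 332, 49.0 and 78.0 in ND KI, without overlap, and fell by 2.53 ± 0.60 (adjusted p = 0.00888). *Col5a3* was 310, 188 and 554 CPM against 183, 37.2 and 37.3, also without overlap (-2.31 ± 0.61, adjusted p = 0.0146). *Col4a2* was 827, 381 and 687 CPM against 511, 117 and 131 (-1.59 ± 0.46, adjusted p = 0.0206), and *Col4a1* was 1346, 603 and 1232 against 969, 261 and 287 (-1.26 ± 0.41, adjusted p = 0.0366), with ND KI 1 inside the WT range in both. These 4 were the members called, all lower. They are 11.4% of the members tested, near the 9.63% of all genes called lower. ND KI 2 and ND KI 3 had adipocyte scores of 8.10 and 7.90 against 9.20 to 9.98 in ND WT, and hepatocyte scores of 10.7 and 11.0 against 1.97 to 2.14. *Adipoq*, whose locus carries the knock-in, had a lower median in KI mice and is 1 of the 10 adipocyte markers. With the adipocyte or the hepatocyte score as a covariate 0 members were called. The exocrine pancreas score was 4.32 and 3.92 in ND KI 2 and ND KI 3 against 0.719 to 1.24 in ND WT, and its part was not tested. Without ND KI 2 or ND KI 3 the count was 0, without ND WT 3 it was 1, and without ND KI 1 it was 10. Without the library labelled ND WT 2 it was 6, all lower.

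On 60% HFD without ligature, 4 members were higher in KI and 2 were lower. They are 11.4% and 5.71% of the members tested, near the 8.73% and 8.06% of all genes called in these directions. *Col7a1* (2.14 ± 0.43, adjusted p = 0.00408), *Col6a4* (2.56 ± 0.89, adjusted p = 0.0488) and the FACIT *Col20a1* (0.94 ± 0.27, adjusted p = 0.0231) were higher in KI (8.73% of all genes), and so was *Col17a1*, which was tested only because of this group. *Col6a4* was 0.738, 1.33 and 0.230 CPM in 60% HFD WT and 3.92, 101 and 1.03 in 60% HFD KI, so that the mouse with the high epididymal score set the mean. Without the 2 libraries richest in epididymal RNA *Col6a4* was not called (0.89 ± 0.33, adjusted p = 0.0571). Lower in KI (8.06% of all genes) were *Col18a1* (-0.90 ± 0.27, adjusted p = 0.0267) and *Col27a1* (-1.34 ± 0.44, adjusted p = 0.0391). *Col18a1* was 354, 491 and 511 CPM in 60% HFD WT and 226, 241 and 252 in 60% HFD KI, and the groups did not overlap. The hepatocyte score was 9.27 to 11.4 in the former and 2.26 to 6.58 in the latter, and the smooth muscle score 3.39 to 3.48 and 5.81 to 6.64. With either as a covariate 0 members were called. The count of 6 was 2 without 60% HFD WT 2 or 60% HFD WT 3, and 3 without 60% HFD WT 1 or 60% HFD KI 1. In the remaining pairs limma and edgeR each called 0 members. The share of all genes was 1.03% in ND LIP (2 members with an unadjusted p under 0.05), 0.00560% in 40% HFD (0), 0.0112% in 40% HFD LIP (0) and 0.0112% in 60% HFD LIP (1). By the unadjusted p, 7.43% of all genes were higher and 5.22% lower in ND LIP. In 60% HFD LIP these shares were 1.69% and 0.795%. In 60% HFD LIP the estimate was higher in KI for 29 of 35 members and 49.5% of all genes, with a median of 0.27 against -0.0024 over all genes.

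For the ligature averaged over diet and genotype no collagen gene passed, and limma called 0 of 35 (0.325% of all genes). An unadjusted p under 0.05 was found for 7, 1 higher (7.18% of all genes) and 6 lower (8.98%), and edgeR called 0. *Col4a3* was 3.64 to 15.4 CPM without ligature (median 8.24) and 2.49 to 12.5 with it (median 6.10), a difference of -0.48 ± 0.16 (adjusted p = 0.15). *Col1a1* differed by -0.45 ± 0.20 (adjusted p = 0.259), with medians of 669 and 578 CPM. The estimate was below 0 in 28 of 35 members and in 55.6% of all genes, and the median of the 35 was -0.13 against -0.02 over all genes. Many members varied together from mouse to mouse, so they are not separate signs. The count was 1 without 60% HFD KI 1.

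Of the 3 interactions with the ligature that were tested, members were called in the one of genotype by ligature under ND. It was not tested within the high-fat diets. The genotype by ligature interaction averaged over diets gave 0 members by limma (0.00560% of all genes), 2 with an unadjusted p under 0.05 and 0 by edgeR. The 60% HFD by ligature interaction gave 0 (0.00%), 10 with an unadjusted p under 0.05 and 0 by edgeR, and 1 without ND WT 2. Shares of all genes at that unadjusted p were 6.74% higher and 4.04% lower for genotype by ligature. For 60% HFD by ligature they were 6.37% and 7.97%. Under ND alone, 3 members were called, all higher (5.05% of all genes). *Col15a1* was 629, 469 and 857 CPM in ND WT, 61.0, 70.5 and 321 in ND WT LIP, 332, 49.0 and 78.0 in ND KI and 135, 199 and 182 in ND KI LIP, an interaction of 3.13 ± 0.84 (adjusted p = 0.0237). *Col23a1*, a membrane-spanning collagen, was 3.70, 17.9 and 7.25, then 2.76, 3.50 and 7.97, then 3.63, 4.10 and 3.48, and then 23.9, 12.5 and 6.19 CPM in the same order of groups (2.26 ± 0.70, adjusted p = 0.0453). *Col11a1*, a cartilage collagen, was 0.163, 4.79 and 0.650, then 0, 0 and 0.387, then 0.0472, 0.324 and 0, and then 0.794, 1.60 and 0.980 CPM in that order, with an estimate of 1.91 ± 0.55. It reached 1 CPM in only 4 libraries, among them ND WT 2 and ND KI LIP 2, whose groups raise this interaction. Its estimate is therefore only a description, although it is among the 3 called. The hepatocyte score was 1.97 to 2.14 in ND WT, 6.72 to 9.40 in ND WT LIP, 5.69 to 11.0 in ND KI and 2.02 to 8.88 in ND KI LIP, and with it as a covariate 0 members were called. The smooth muscle score, with which 0 were called too, was 7.66 in ND WT 2 and 8.47 and 7.86 in ND KI LIP 1 and 2. The count was 0 without any of ND WT LIP 1, ND WT LIP 2, ND KI 2, ND KI 3 and ND KI LIP 2, 1 without ND WT 2 or ND KI LIP 3, and 5 without ND KI 1.

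Genes that make, cut and bind collagens rose in small numbers under 60% HFD. Of the 17 tested genes that make and fold chains, 4 were higher, namely the lysyl hydroxylases *Plod1* (0.47 ± 0.12) and *Plod3* (0.46 ± 0.15), the galactosyltransferase *Colgalt1* (0.44 ± 0.10) and *P4hb*, a subunit of prolyl hydroxylase (0.38 ± 0.11). Of 14 genes that cut the ends and cross-link fibres, 3 were higher and 1 was lower. They were *Pcolce2*, an enhancer of end cleavage (1.05 ± 0.24), the transglutaminase *Tgm2* (0.41 ± 0.12), the protease *Bmp1* (0.34 ± 0.09) and the lower protease *Tll1* (-0.64 ± 0.19). Of 14 receptors and uptake genes, 3 were higher. The uptake receptor *Mrc2* (1.5 ± 0.27, adjusted p = 0.000820) had the largest change, beside the integrin chains *Itga1* (0.67 ± 0.10, adjusted p = 0.000157) and *Itgb1* (0.35 ± 0.12). Of 16 fibril partners, 5 were higher and 1 was lower. *Postn* (0.97 ± 0.27), *Prelp* (0.95 ± 0.23) and *Sparc* (0.94 ± 0.24) rose, all secreted binders of collagen, and *Fbln1* fell (-0.71 ± 0.25). The adjusted p of each gene named here was under 0.05, against 10.2% of all genes higher and 8.40% lower. Under 40% HFD the numbers were *P4hb* in the first list, none in the list of cutting and cross-linking, *Itga1* among receptors, and *Thbs1* (1.38 ± 0.25) and *Fn1* (0.57 ± 0.14) among partners, all higher, against 5.36% of all genes higher. For the knock-in, the ligature and 60% against 40% HFD, each averaged, limma called 0 genes of the 4 lists.

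Chains of the same molecule varied together from mouse to mouse. Over the 36 libraries, which share their depth and makeup, Pearson's r of log2 values was 0.98 for *Col6a1* with *Col6a2*, 0.98 for *Col4a1* with *Col4a2*, 0.96 for *Col1a1* with *Col1a2*, 0.92 for *Col4a3* with *Col4a4* and 0.92 for *Col4a5* with *Col4a6*. *Col5a3*, however, was most like *Col15a1* (0.97), whereas *Col5a1* was most like *Col6a2* (0.93). The low epithelial members *Col7a1* and *Col17a1* were like each other (0.89), as were *Col6a5* and *Col6a6* (0.87). The median over all 595 pairs was 0.14, and 0.17 over the 95 pairs of the same class. An r of 0.8 or more was found for 43 of the 595 pairs, and 15 of these were among the 95 pairs of the same class. Among 17773 genes compared, *Col1a1* was most like *Col1a2*, *Col3a1*, the elastin gene *Eln* and *Pcolce*, and *Col4a1* was most like *Col4a2* and then *Itga6*, a laminin receptor chain (0.94).

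To set members beside cell type markers, the coefficient of each gene on a marker score was fitted within groups by limma, with 1 coefficient per group, so that no group difference enters. These fits were added after seeing the data. Scores were not independent within groups. In ND KI 1, 2 and 3 the adipocyte score was 9.12, 8.10 and 7.90. The hepatocyte score there was 5.69, 10.7 and 11.0, and the exocrine pancreas score 1.06, 4.32 and 3.92. In 40% HFD WT 1 and 3, adipocyte scores of 7.86 and 9.39 went with hepatocyte scores of 11.0 and 11.2. The part of this makeup in the coefficients was not tested. With the score of progenitors and fibroblasts, 18 of 35 members rose (14.0% of all genes) and *Col27a1* fell (19.7%). With the adipocyte score, 9 rose (11.0%), led by *Col5a3* (1.39 ± 0.25 log2 units per unit of score), *Col15a1* (1.32 ± 0.25), *Col4a2* (1.07 ± 0.17) and *Col4a1* (1.04 ± 0.14). When both scores were in the fit, the coefficients differed. *Col5a3* had 1.39 ± 0.27 for adipocytes and -0.02 ± 0.30 for progenitors, a difference of 1.41 ± 0.46 (adjusted p = 0.0420). *Col4a2* (0.99 ± 0.32, adjusted p = 0.0426) and *Col4a1* (0.86 ± 0.25, adjusted p = 0.0236) also lay on the adipocyte side. These 3 of 35 members are a share near the 7.35% of all genes on that side. *Col15a1* (1.13 ± 0.46, adjusted p = 0.102) did not pass. On the progenitor side were 6 members (6.67%), namely *Col14a1* (-1.23 ± 0.21, adjusted p = 0.000765), *Col1a2* (-1.13 ± 0.29, adjusted p = 0.0118), *Col8a2* (-1.6 ± 0.44), *Col8a1* (-1.50 ± 0.50), *Col4a6* (-1.33 ± 0.42) and *Col4a5* (-1.06 ± 0.33). *Col1a1* (-1.07 ± 0.37, adjusted p = 0.0537) and *Col3a1* (-0.99 ± 0.37, adjusted p = 0.0749) did not pass. The type VI chains *Col6a1*, *Col6a2* and *Col6a3* lay between, with differences of -0.32 ± 0.32, -0.20 ± 0.33 and -0.17 ± 0.35. No member is in either marker list.

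**Figure D4:**
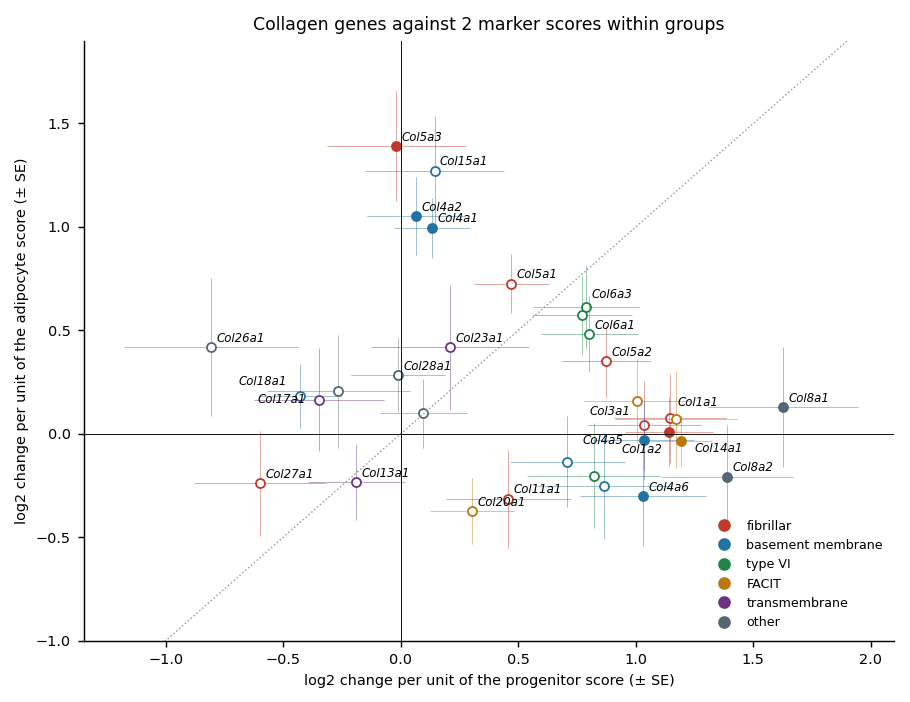
Coefficients (± SE) of collagen genes on the progenitor score (x axis) and the adipocyte score (y axis), in log2 units per unit of score, fitted together within the 12 groups. Filled dots differ between the scores at an adjusted p below 0.05, the dotted line marks equal coefficients, *Col6a4* and *Col6a5* are left out for their wide errors and 8 dots carry no name. *Col5a3*, *Col15a1*, *Col4a1* and *Col4a2* stand apart at adipocyte coefficients from 1.00 to 1.39.

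Other scores picked out other members in the same kind of fit. With the mesothelium score 9 members rose (5.75% of all genes), among them *Col8a1* (0.81 ± 0.20), *Col4a6* (0.78 ± 0.09), *Col8a2* (0.64 ± 0.17) and *Col4a5* (0.60 ± 0.11). With the macrophage score 11 rose (8.35%), with *Col8a1* (0.92 ± 0.27) highest. With the endothelium score *Col17a1*, *Col7a1* and *Col23a1* rose (1.88%). *Col17a1* and *Col7a1* reached 1 CPM in only 4 and 5 libraries. Their highest values and the highest endothelium score (5.16) were from the library labelled 60% HFD KI 3, whose *Ccl19* goes against the label. With the exocrine pancreas score 10 fell (7.18%), the strongest being *Col15a1* (-0.73 ± 0.17) and *Col5a3* (-0.69 ± 0.18). With the cartilage score, of which 3 of 4 markers were measured, *Col11a1*, *Col13a1* and *Col6a4* rose (2.50%) and *Col4a1* and *Col5a2* fell (1.93%). Its marker *Acan* was at 0 in 17 libraries. The score was highest in the libraries labelled ND WT 2 (2.16) and 60% HFD KI 2 (2.02), those richest in epididymal RNA and highest in *Col6a4*. *Col11a1* met the filter only with these 2 libraries, so its coefficient is only a description. A link to cartilage was not tested. *Col20a1* rose with the germ cell score (3.02%). The hepatocyte score gave *Col13a1* only (0.11 ± 0.03, 9.15%). With the scores of skeletal muscle, kidney tubule, B cells and Schwann cells limma called 0 members.

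Some low members were highest in the libraries with high scores of other tissues. *Col6a4* was 0.230 to 100.9 CPM, and only the libraries labelled 60% HFD KI 2 (100.9) and ND WT 2 (30.8), those richest in epididymal RNA, were above 3.92. With the epididymal score, *Col6a4* (0.68 ± 0.08), *Col11a1* (0.30 ± 0.03) and *Col17a1* (0.24 ± 0.05) rose (2.97% of all genes). *Col11a1* and *Col17a1* reached 1 CPM in 4 libraries each, and met the filter only with the 2 libraries richest in epididymal RNA. Their coefficients on this score are therefore only a description. *Col23a1* rose with the smooth muscle score (0.36 ± 0.08, 2.03%), and was highest in ND KI LIP 1 (23.9 CPM), the library with the highest smooth muscle score (8.47). *Col17a1* was above 1 CPM in 60% HFD KI 2 and 3, ND WT 2 and 40% HFD WT 2, whose smooth muscle scores were 5.81, 6.5, 7.66 and 6.31. It was 0.900 and 0.675 CPM, however, in ND KI LIP 1 and 2, which had the highest smooth muscle scores (8.47 and 7.86), and 0.852 CPM in 60% HFD KI 1 (6.64), and its coefficient on that score did not pass (adjusted p = 0.175). *Col26a1* was 15.0 CPM in the library labelled 60% HFD KI 3 and at most 1.96 elsewhere. *Col4a6* was lowest (5.84 CPM) in 60% HFD KI LIP 1, the library with the lowest mesothelium score (3.93).

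**Figure D5:**
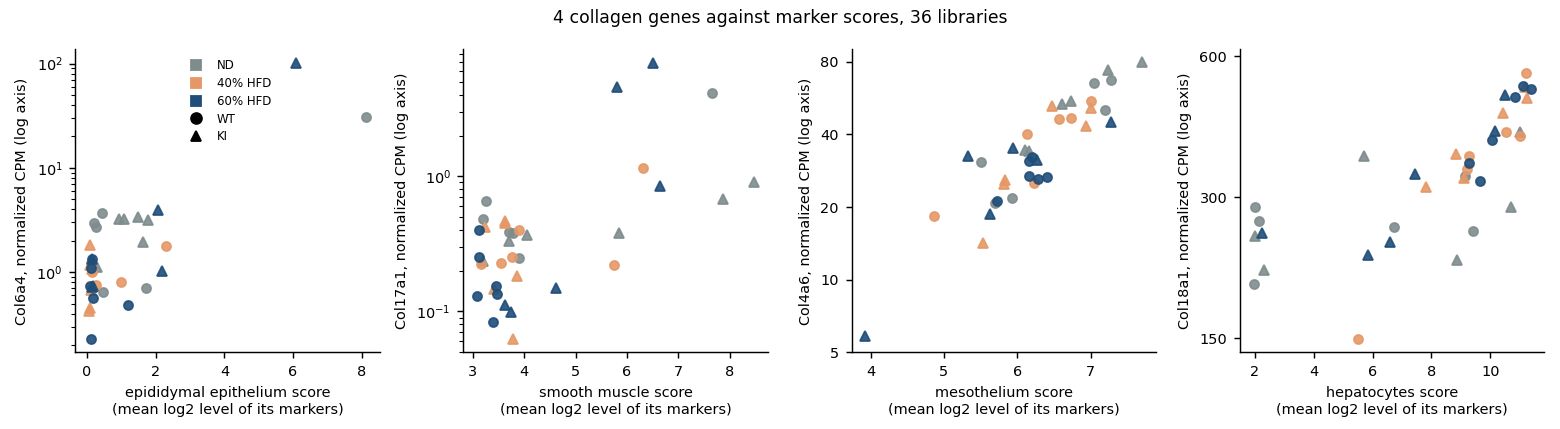
Normalized CPM (log y axis) of *Col6a4*, *Col17a1*, *Col4a6* and *Col18a1* against the score of a marker list in each of 36 libraries, coloured by diet, with circles for WT and triangles for KI. *Col6a4* stands out in the 2 libraries with an epididymal score above 5, *Col17a1* is above 1 CPM in 4 libraries with smooth muscle scores of 5.81 to 7.66 and below 1 CPM at the highest score, and *Col4a6* rises with the mesothelium score.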

How the data were processed

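RNA of epididymal white adipose tissue was sequenced in 36 libraries, 1 per mouse, after removal of ribosomal RNA with a strand-specific kit. According to the methods and labels the authors trimmed reads with Trimmomatic 0.38 and counted them with RSEM 1.3.0 and Bowtie2. The methods name mm10 transcripts and the labels GRCm39, so the build is not settled. The deposited values are CPM normalized by the authors with edgeR, treated here as a signal, since columns sum to 799716 to 1208061. Every value was a whole multiple of 1 read within 0.01 of a read (100% of values), and 1 read was worth 0.0472 to 0.0834 CPM.

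Genes with at least 1 CPM in at least 3 libraries were tested with limma 3.58.1 (R 4.3.3) on log2(CPM + 1), with 1 coefficient for each of the 12 groups over all 36 libraries and a trended prior. Benjamini-Hochberg adjustment ran over 17852 genes, and an adjusted p below 0.05 was called. edgeR 4.0.16 (quasi-likelihood) on the recovered reads was an alternative. Scripts were tested on simulated data. Replicate numbers did not pair the mice. Other alternatives were the pseudocount, the filter, the normalization, the replicate block, sample weights, the study's own criteria and leaving out libraries. Fits with a marker score as a covariate or coefficient, and those without doubted libraries, were chosen after seeing the data. The members, marker lists and pathway lists were chosen with earlier results of these data known. Named were 13 common adipose and basement membrane chains, members called in a comparison (at most 6 per direction), the most abundant member of each class and members at 0 or not tested. Other members and the comparisons of low members with marker scores were named after their values were seen. Levels per length used GENCODE M21 exon lengths.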

Additional observations from a re-analysis of the deposited data

Results flagged for a closer look

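The effect of the ligature under ND differed between genotypes for 3 members by the interaction term of limma, which is what brought them here. For *Col15a1* the interaction was 3.13 on the log2 scale. Values fell from 469 to 857 CPM in ND WT to 61.0 to 321 CPM in ND WT LIP, and were 49.0 to 332 CPM in ND KI and 135 to 199 CPM in ND KI LIP. For *Col23a1* it was 2.26, with up to 17.9 CPM in the library labelled ND WT 2 and 23.9 CPM in ND KI LIP 1. For *Col11a1* it was 1.91, with 4.79 CPM in the library labelled ND WT 2 and at most 1.60 CPM in the other ND mice. Without the 2 libraries richest in epididymal RNA, *Col15a1* (3.35) was called and *Col23a1* (1.73, adjusted p = 0.126) was not. *Col11a1* failed the filter on low values there and was not tested. Without the 2 libraries whose *Ccl19* goes against the label, *Col15a1* (3.35) and *Col5a3* (2.92, adjusted p = 0.0413) were called and *Col23a1* (1.73, adjusted p = 0.108) was not. *Col11a1* (1.22) was called there too. With all mice it reached 1 CPM in only 4 libraries, among them ND WT 2 and ND KI LIP 2 of the groups compared, so its values are only a description.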

How the results depend on the processing

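Counts below, also those with a mouse left out, are collagen genes called of 35, for the comparison named. The share of all genes called in each setting is not given beside them. A changed count therefore describes the setting and is not a result about the members. They moved by over 1.5 times as follows. With a pseudocount of 0.1, 60% HFD against ND in KI gave 1. With a pseudocount of 5, and with no filter, 40% HFD against ND gave 1. With a filter on a mean of 5 CPM, 60% HFD against ND in KI gave 0, KI against WT in 60% HFD 1 and genotype by ligature under ND 1. Quantile normalization gave 6 for 60% HFD against ND. Sample weights, whose estimation stopped before convergence, gave 17 for 40% HFD and 20 for 60% HFD against ND, 7 for the knock-in, 5 for the ligature, 5, 11, 16 and 27 for 60% HFD in WT, WT LIP, KI and KI LIP, 13 and 11 for KI against WT in ND and ND LIP, and 14, 11, 4, 14 and 14 for the interactions of genotype with 60% HFD, 40% HFD and ligature, of 60% HFD with ligature, and of genotype with ligature under ND. With edgeR, 60% HFD against ND gave 2 in WT and 4 in KI LIP, KI against WT in ND 2 and genotype by 60% HFD 1. The criteria of the study (unadjusted p up to 0.05 with a fold) gave 8 for 40% HFD, 1 for the ligature, 4, 8, 9 and 17 for 60% HFD in WT, WT LIP, KI and KI LIP, 8, 2, 10 and 1 for KI against WT in ND, ND LIP, 60% HFD and 60% HFD LIP, and 7, 6, 2, 10 and 5 for the interactions in the order above. Fitting only the groups compared gave 5, 0 and 13 for 60% HFD in WT LIP, KI and KI LIP, 0 and 1 for KI against WT in ND and 60% HFD, and 0 for genotype by ligature under ND. With the hepatocyte covariate 60% HFD in WT LIP gave 2, and 60% HFD in KI, KI against WT in ND and 60% HFD and genotype by ligature under ND gave 0. With the smooth muscle covariate 60% HFD against ND gave 6, and 40% HFD against ND, 60% HFD in KI and KI LIP, KI against WT in 60% HFD and genotype by ligature under ND gave 0. The adipocyte covariate gave 0 for KI against WT in ND and 3 for 60% HFD in KI LIP, and the mesothelium covariate 0 for 40% HFD against ND, 7 for KI against WT in ND and 4 for 60% HFD in KI LIP. Without the libraries richest in epididymal RNA the counts were 6 for 60% HFD against ND, 1 for 60% HFD in WT LIP, 7 for KI against WT in ND, 1 for 60% HFD by ligature and 1 for genotype by ligature under ND. Without those whose *Ccl19* goes against the label they were 1 for 40% HFD and 5 for 60% HFD against ND, 2 for the knock-in, 11 for 60% HFD in KI LIP, 1 for KI against WT in ND LIP and 2 for 60% HFD by ligature. The cause of these shifts was not tested.

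Leaving out each mouse gave 0 to 9 for 40% HFD against ND, 6 to 16 for 60% HFD against ND, 0 to 1 for the knock-in, the ligature, 60% HFD in WT and 60% HFD by ligature, 0 to 2 for 60% HFD in WT LIP, 0 to 11 in KI and 1 to 5 in KI LIP, 0 to 10 for KI against WT in ND, 2 to 7 in 60% HFD, 0 to 3 for genotype by 60% HFD and by 40% HFD, and 0 to 5 for genotype by ligature under ND. With the replicate number as a block, 60% HFD against ND gave 10 and 40% HFD against ND 3, and no count moved by over 1.5 times. Same-numbered mice had a mean correlation of deviations of -0.00825 (73 of 198 pairs above 0.1), so the block pairs no samples. Depth limits members under about 0.250 CPM, the worth of 3 reads where a read weighed most.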
